A study of Homo sapiens with 12 samples.

Results

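The genes described here are those of the ATF4 amino acid stress response, a set of 41 genes of the 58174 in each deposited table. They were taken by symbol from the gene column of both tables, and each was compared between siI1 and siC libraries within its own table. The set holds 10 regulators, 11 enzymes of amino acid and one-carbon metabolism, 7 amino acid transporters, 10 aminoacyl-tRNA synthetases, the tRNA exporter XPOT, and the secreted or surface proteins STC2 and VLDLR.

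When amino acids run short or proteins misfold, kinases phosphorylate the translation factor eIF2, bulk translation drops, and the mRNA of the transcription factor ATF4 is translated more efficiently. ATF4, in dimers with C/EBP proteins, then activates genes that import amino acids, make serine, glycine and asparagine, and charge tRNAs, together with feedback regulators such as TRIB3, DDIT3 and PPP1R15A. The pathway is active in many tumour cells, where it meets the demand for amino acids and for glutathione.

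Poly-A RNA was sequenced from 2 human tumour cell lines, HepG2 from a liver cancer and BE(2)-C from a neuroblastoma. Cells received either a control siRNA (siC) or a pool of siRNAs against IGF2BP1 (siI1), an RNA-binding protein that is abundant in fetal tissue and in tumours, and were harvested 72 h after transfection. Each of the 4 groups, HepG2 siC, HepG2 siI1, BE(2)-C siC and BE(2)-C siI1, held 3 libraries, described as biological replicates in the methods of the study, and the siRNA concentration was higher in BE(2)-C than in HepG2. Values are FPKM, a unit read from the values themselves, which are fragments scaled to gene length and to library size with a further factor per library of 0.966 to 1.02, and between 12852988 and 15721210 fragments on genes stood behind each library.

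The HepG2 library siI1 replicate 1 stood apart from its group. Its counts per gene differed from those of siI1 replicates 2 and 3 by 13.8 and 14.3 times the variance that counting gives, against 1.98 times between replicates 2 and 3, and the counts of members in HepG2 are therefore also given without it. Both lines expressed their own markers and lacked those of the other. In HepG2, 8 hepatic markers led by ALB summed to 9356, 9813 and 9450 FPKM in the siC libraries and to 12708, 14748 and 14949.7 FPKM in the siI1 libraries, with 5 of the 8 higher and 3 lower after knockdown. For BE(2)-C, 8 sympathetic neuroblast markers led by MYCN summed to 3699, 3453 and 3480.4 FPKM with siC and to 3766, 3659 and 3728 FPKM with siI1, with 5 lower and 2 higher. The markers of the other line summed to at most 0.269 FPKM in a HepG2 library and 0.228 FPKM in a BE(2)-C library. The part of the shift in line markers in the results below was not tested, and in bulk RNA fewer cells expressing a gene and less RNA per cell cannot be told apart.

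The siRNA target served as the check on the labels. IGF2BP1 was measured at 48.5, 46.6 and 50.8 FPKM in the HepG2 siC libraries and at 12.6, 10.7 and 10.7 FPKM in the siI1 libraries. The groups lay far apart, with the highest siI1 value in replicate 1, and the log2 fold change was -2.10 ± 0.08 (SE, 3 libraries per group; limma adjusted p = 7.83e-06), or -2.18 without that replicate. The BE(2)-C libraries held 21.3, 20.6 and 21.6 FPKM with siC and 4.85, 4.75 and 4.87 FPKM with siI1. Here too every siI1 library was below every siC library, with a log2 fold change of -2.11 ± 0.05 (limma adjusted p = 1.49e-05). Fold changes throughout are differences of log2(FPKM + 0.1), which understates changes of genes near 0, and a gene was called when its limma p, adjusted over all tested genes of the line, was below 0.05. A permutation test of 3 against 3 libraries cannot go below p = 0.1, so it was not used for single genes.

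More members fell than rose in both lines. In HepG2 all 41 were tested, and 27 were lower and 7 higher after knockdown, 34 in all, where 23.0% of all 19436 tested genes were lower, 21.9% higher and 44.8% called in either direction. Their median log2 fold change was -0.50, beside 0.01 over all tested genes. CHAC1 is 1 of the 27 although it reached the level needed for testing in the siC libraries only, so that it had to be lower; without it 26 of 40 were lower and 7 higher, with a median of -0.48. Of 40 members tested in BE(2)-C, 21 were lower and 3 higher, against 14.8% lower, 13.3% higher and 28.2% called in either direction among 18656 tested genes. The median over the members was -0.30 there, beside 0.02 over all genes. NUPR1 is the member not tested in BE(2)-C, where it had at most 2 fragments in a library.

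**Figure D1:**
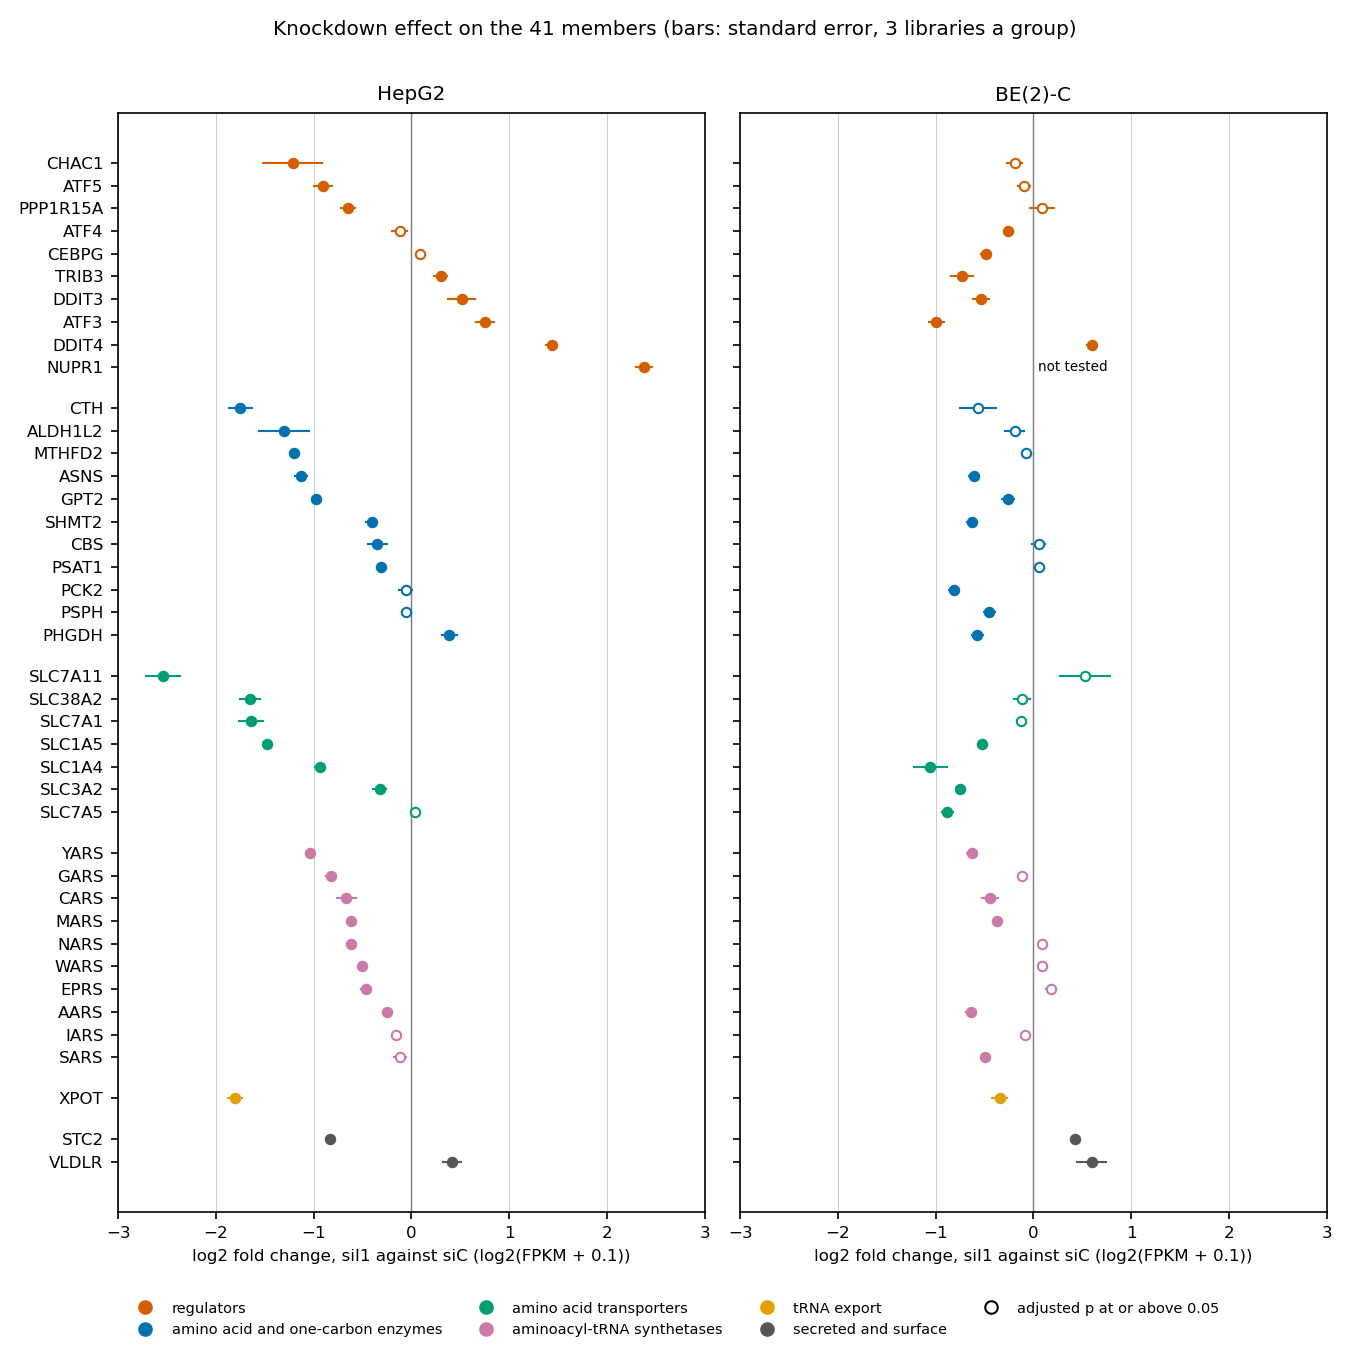
The knockdown effect on each member (log2 fold change on the log2(FPKM + 0.1) scale, siI1 against siC; bars are standard errors over 3 libraries per group) is plotted by role for HepG2 on the left and BE(2)-C on the right. Filled points passed an adjusted p of 0.05; in HepG2 the points run from -2.54 for SLC7A11 to 2.38 for NUPR1, and in BE(2)-C from -1.05 for SLC1A4 to 0.60 for DDIT4.

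Without HepG2 siI1 replicate 1, 27 members were lower and 7 higher, with a median of -0.51. CBS then missed the threshold (log2 fold change -0.29, limma adjusted p = 0.0725) and IARS passed it (-0.19, limma adjusted p = 0.00964). In the deposited scaling the summed FPKM of the HepG2 siI1 libraries, 273699 to 300505, exceeded that of the siC libraries, 252616 to 264612. When every library was brought to the same sum, the median of all tested HepG2 genes moved by -0.15, the members' median became -0.67, 33 members were lower and 4 higher, and the share of higher genes among all called genes went from 48.8% to 35.5%. Centring the libraries on their medians moved that share the other way, to 57.6% in HepG2, and gave a members' median of -0.41. Equal sums in BE(2)-C left 20 members lower and 3 higher.

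A core of the C/EBP-ATF response element, TGATGNAA or its reverse complement TTNCATCA, was searched in RefSeq promoters of build GRCh38.p14, from 250 bases before to 50 bases after each start site. Promoters were found for 34 members, 9 of them through the Ensembl gene ID because the symbol has changed, and 14 of the 34 held the core in at least 1 window, which was the case for 4.46% of the 27305 genes in that collection. No promoter was found for NUPR1, PSPH, SHMT2, ALDH1L2, GPT2, SLC7A11 and YARS. The members were chosen as genes of the ATF4 response, so a share above that of all genes is no independent evidence. Sites outside the window were not searched, so a member without a match may hold the core elsewhere. By window the core was present in 14 of 54 for the members and in 3.62% of all 35116. It occurred for 3 of 9 regulators, 1 of 7 enzymes, 4 of 6 transporters and 6 of 9 aminoacyl-tRNA synthetases, and for neither XPOT nor STC2 and VLDLR. Of the matched members lower in HepG2, 11 of 22 held the core, of those higher 1 of 6 and of those not called 2 of 6. Both the 22 and the 11 include CHAC1, which reached 0.1 FPKM in HepG2 siC libraries only, so the filter set its direction. The same counts by BE(2)-C call were 9 of 17 lower, 0 of 3 higher and 5 of 14 not called. The 4 stretches show the core in context, with 24 bases on each side. They are those that lie wholly upstream of the annotated starts of their gene, flanks included. Capitals mark the core, and each line reads 5′ to 3′ on the strand of the gene. A match of letters is a description, not a binding site.
ASNS, chr7:97872445-97872500, minus strand, core beginning 68 bases before the start: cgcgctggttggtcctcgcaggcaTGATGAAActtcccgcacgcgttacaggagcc
ATF3, chr1:212565192-212565247, plus strand, core beginning 191 bases before the start: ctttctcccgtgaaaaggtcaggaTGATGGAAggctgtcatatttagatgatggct
CHAC1, chr15:40953238-40953293, plus strand, core beginning 209 bases before the start: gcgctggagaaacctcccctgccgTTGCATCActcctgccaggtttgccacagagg
AARS (now AARS1), chr16:70289662-70289717, minus strand, core beginning 187 bases before the start: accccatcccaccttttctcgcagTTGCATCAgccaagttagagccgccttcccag

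Among the regulators, the RNA of ATF4 itself was called lower in BE(2)-C only. ATF4 stood at 127, 132 and 129 FPKM in HepG2 siC and 105, 125 and 128 FPKM in HepG2 siI1. The groups overlapped, siI1 replicate 1 was the lowest of the 6 libraries, and the log2 fold change of -0.12 ± 0.08 did not pass the threshold (limma adjusted p = 0.290). Without that library the value was -0.03 (limma adjusted p = 0.554). The same transcript in BE(2)-C read 236, 224 and 233 FPKM with siC and 199.8, 189 and 189 FPKM with siI1. Here the groups were separate and ATF4 fell, by a log2 fold change of -0.26 ± 0.05 (limma adjusted p = 0.00625). The difference between the lines, BE(2)-C minus HepG2, was -0.14 ± 0.10 and did not pass the threshold (limma adjusted p = 0.287); without HepG2 siI1 replicate 1 it was -0.23 and did (limma adjusted p = 0.00828). With equal FPKM sums ATF4 was also called in HepG2, at -0.29 (limma adjusted p = 0.00371).

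ATF3, DDIT3 and TRIB3 act downstream of ATF4 and moved in opposite directions in the 2 lines. ATF3, a stress-induced factor that shares binding sites with ATF4, read 1.66, 1.63 and 1.85 FPKM in HepG2 siC and 3.06, 2.97 and 2.83 FPKM in siI1. All 3 siI1 libraries were higher, for a log2 fold change of 0.75 ± 0.10 (limma adjusted p = 0.00129). BE(2)-C libraries read 5.07, 4.94 and 4.90 FPKM with siC and 2.47, 2.64 and 2.25 FPKM after knockdown. The siI1 libraries there were all lower, with a log2 fold change of -0.99 ± 0.09 (limma adjusted p = 4.63e-04), and the effects differed between the lines by -1.75 ± 0.12 (limma adjusted p = 1.76e-06).

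DDIT3 encodes CHOP, the C/EBP family factor tied to cell death under lasting stress. Its HepG2 values were 11.8, 11.3 and 10.1 FPKM with siC and 12.5, 16.7 and 19.0 FPKM with siI1. Replicate 1 was the lowest siI1 library but still above all siC libraries, and DDIT3 was called higher (0.51 ± 0.15, limma adjusted p = 0.0304). That call was lost with equal FPKM sums (0.35, limma adjusted p = 0.0612), without the trend (limma adjusted p = 0.0640) and without the filter (limma adjusted p = 0.0538). It was kept without siI1 replicate 1 (0.68, limma adjusted p = 0.00160) but lost on leaving out siC replicate 1 (0.56, limma adjusted p = 0.0565), siC replicate 2 (0.53), siC replicate 3 (0.45), siI1 replicate 2 (0.48) or siI1 replicate 3 (0.38), where the adjusted p reached at most 0.0986. DDIT3 in BE(2)-C was at 12.7, 12.5 and 12.2 FPKM with siC and 9.86, 8.38 and 7.57 FPKM with siI1. Every siI1 library was lower there (-0.54 ± 0.10, limma adjusted p = 0.00673), and the difference between the lines was -1.05 ± 0.19 (limma adjusted p = 0.00128).

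TRIB3, a pseudokinase that binds ATF4 and holds back its activity, comes next; its levels in the 2 lines stand side by side only, because the tables were normalized separately. HepG2 libraries read 58.9, 67.8 and 65.9 FPKM with siC and 72.9, 81.9 and 82.3 FPKM with siI1. The siI1 values lay above all siC values by a small margin (0.30 ± 0.08, limma adjusted p = 0.0181). The call was lost without siC replicate 1 (0.24, limma adjusted p = 0.0607), siI1 replicate 2 (0.27) or siI1 replicate 3 (0.27), with equal FPKM sums (0.13, limma adjusted p = 0.0688) and without the trend (limma adjusted p = 0.0536). TRIB3 went in BE(2)-C from 8.38, 6.79 and 6.68 FPKM to 4.22, 3.87 and 4.99 FPKM. These groups were separate, with siI1 lower (-0.73 ± 0.12, limma adjusted p = 0.00589), and the lines differed by -1.03 ± 0.15 (limma adjusted p = 3.04e-04).

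NUPR1 and DDIT4 rose most among the members in HepG2. NUPR1, a small chromatin-associated stress protein, was at 5.27, 4.82 and 4.99 FPKM in siC and 23.3, 27.7 and 29.1 FPKM in siI1. No siI1 library came near the siC range, and the log2 fold change was 2.38 ± 0.09 (limma adjusted p = 8.48e-06). DDIT4, which restrains mTORC1 signalling, read 45.8, 52.1 and 46.8 FPKM in HepG2 siC and 126, 137 and 129.5 FPKM in siI1. BE(2)-C libraries gave DDIT4 at 54.3, 49.8 and 53.0 FPKM with siC and 86.0, 77.0 and 75.7 FPKM with siI1. Both lines thus had all siI1 libraries above all siC libraries, at 1.44 ± 0.07 in HepG2 (limma adjusted p = 1.56e-05) and 0.60 ± 0.06 in BE(2)-C (limma adjusted p = 8.74e-04), and the rise was smaller in BE(2)-C by -0.84 ± 0.09 (limma adjusted p = 4.79e-05).

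ATF5, an ATF4 relative, fell in HepG2 and CEBPG, a dimer partner of ATF4, fell in BE(2)-C. ATF5 was measured at 13.4, 15.2 and 14.0 FPKM in HepG2 siC and 6.53, 7.74 and 8.41 FPKM in siI1. The groups were well separated there (-0.90 ± 0.10, limma adjusted p = 5.35e-04). The ATF5 groups overlapped in BE(2)-C, where all 6 values lay between 6.87 and 8.13 FPKM (-0.10 ± 0.07, limma adjusted p = 0.342). CEBPG gave 11.2, 11.9 and 12.7 FPKM in BE(2)-C siC and 8.42, 8.31 and 8.78 FPKM in siI1. All siI1 libraries were lower (-0.48 ± 0.06, limma adjusted p = 0.00203), whereas in HepG2 the siI1 libraries were above siC by a narrow margin, all 6 values lay between 12.2 and 13.4 FPKM and the gene was not called (0.09 ± 0.05, limma adjusted p = 0.172). After median centring CEBPG was called higher in HepG2, at 0.18 (limma adjusted p = 0.0187). The effects on ATF5 and on CEBPG differed between the lines by 0.81 ± 0.13 and -0.57 ± 0.08 (limma adjusted p = 5.30e-04 and 1.38e-04).

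PPP1R15A encodes GADD34, which directs a phosphatase to eIF2 and so ends the response, and CHAC1 encodes an enzyme that degrades glutathione. PPP1R15A went from a mean of 18.3 to 11.6 FPKM in HepG2 (-0.65 ± 0.08, limma adjusted p = 8.44e-04). The PPP1R15A groups overlapped in BE(2)-C, where values ran from 6.45 to 8.93 FPKM (0.08 ± 0.13, limma adjusted p = 0.679). CHAC1 in HepG2 rested on 1 to 9 fragments per library, at 0.250, 0.178 and 0.297 FPKM with siC and 0.0359, 0.0667 and 0.0363 FPKM with siI1. It reached 0.1 FPKM in siC libraries only, so its direction was set by the filter and its call is no support for a change. The call (-1.21 ± 0.31, limma adjusted p = 0.0180) was lost without siC replicate 1 (-1.19, limma adjusted p = 0.0603), siC replicate 3 (-1.10) or siI1 replicate 3 (-1.17), and its size ran from -2.17 to -0.25 with a pseudocount of 0.01 or 1. A replicate block ended the call as well (limma adjusted p = 0.0504). BE(2)-C libraries held CHAC1 at 3.27 to 4.40 FPKM, with siI1 below siC, and it was not called (-0.19 ± 0.09, limma adjusted p = 0.161).

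**Figure D2:**
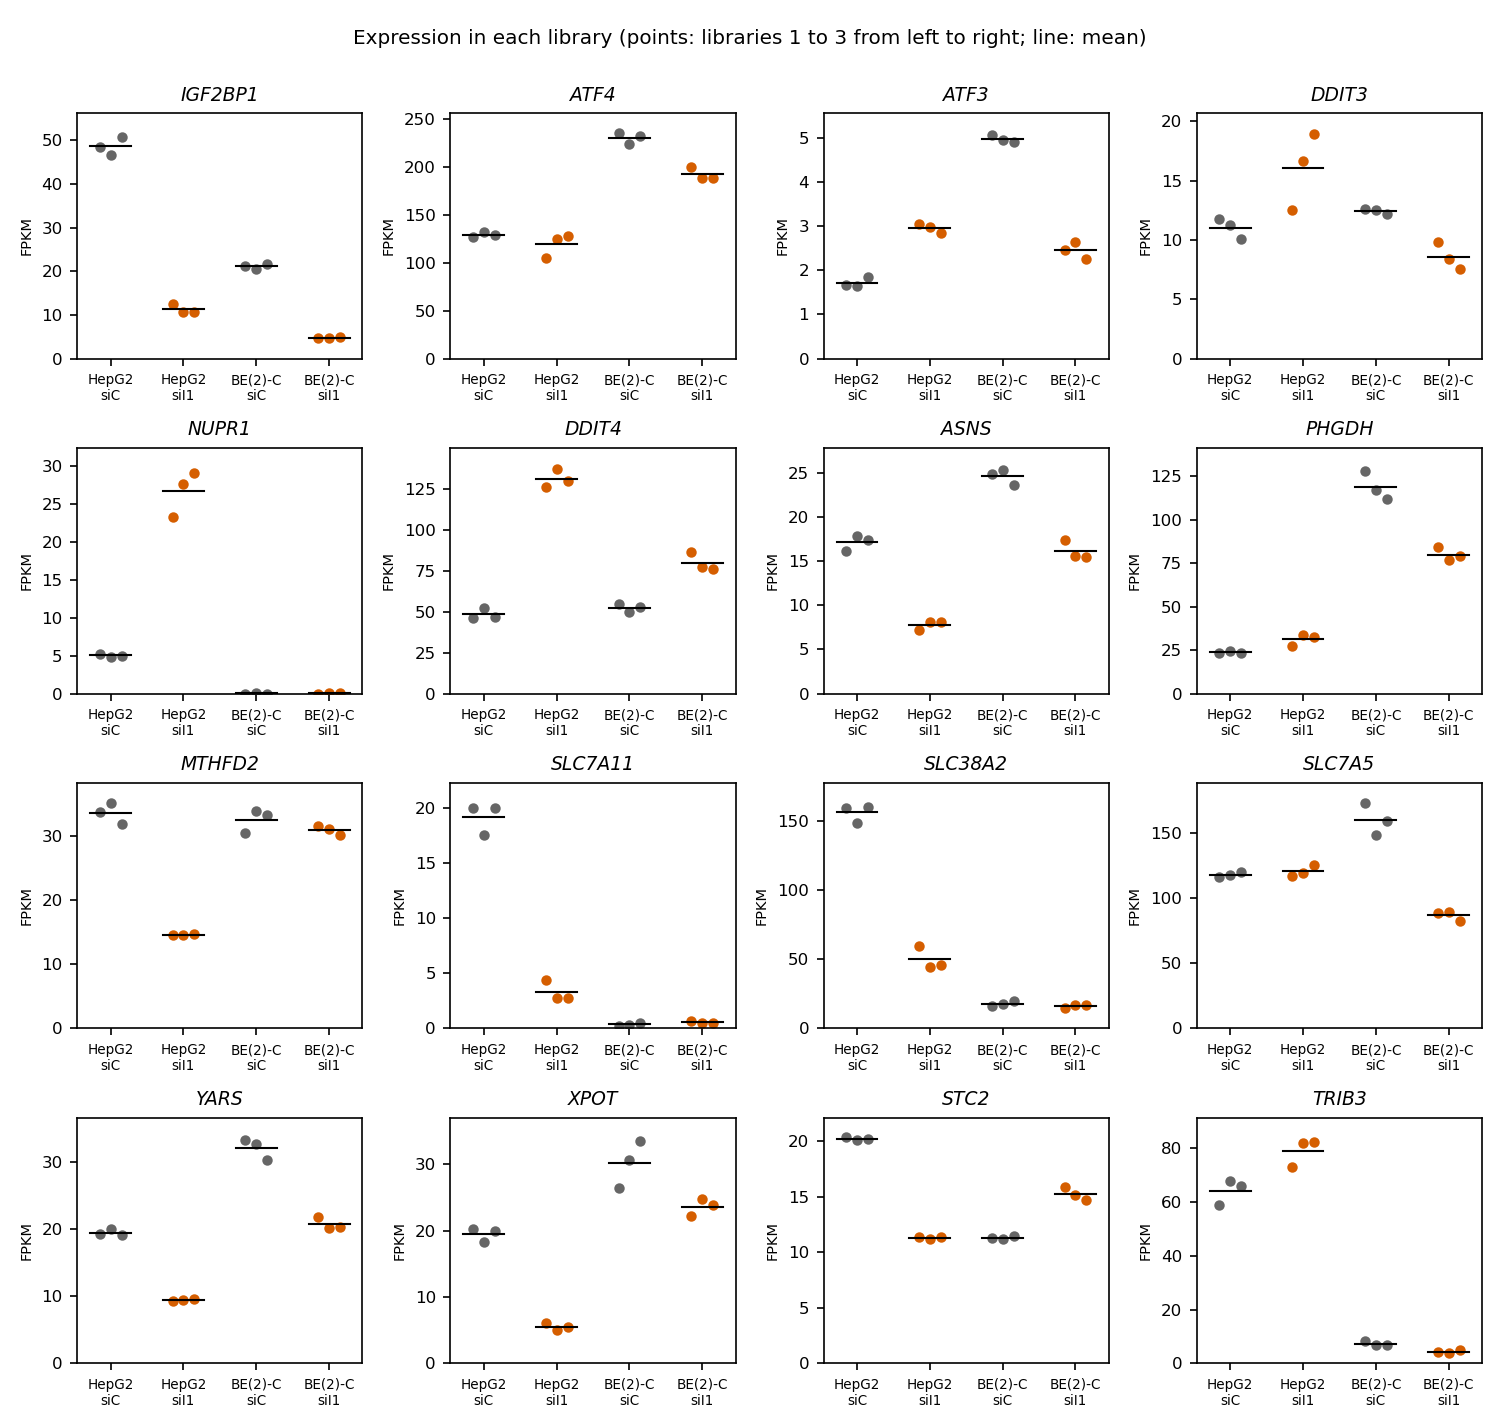
FPKM of IGF2BP1 and 15 members is shown in each of the 12 libraries (grey siC, orange siI1; points are replicates 1 to 3 from left to right and the line is the group mean; each panel has its own linear axis from 0). ATF3, DDIT3, TRIB3 and PHGDH are higher with siI1 in HepG2 and lower in BE(2)-C, STC2 is the reverse, and SLC7A11 and NUPR1 are close to 0 in BE(2)-C.

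Of the 11 enzymes, 8 were lower and 1 higher in HepG2 (median log2 fold change -0.40), and 6 were lower and none higher in BE(2)-C (median -0.45), beside 44.8% and 28.2% called among all tested genes. ASNS makes asparagine and is a classical ATF4 target. Its values were 16.2, 17.9 and 17.4 FPKM in HepG2 siC and 7.17, 8.15 and 8.08 FPKM in siI1. They were in BE(2)-C 24.9, 25.4 and 23.7 FPKM and 17.4, 15.6 and 15.5 FPKM. The siI1 libraries were all lower in both lines, at -1.13 ± 0.07 in HepG2 (limma adjusted p = 5.02e-05) and -0.61 ± 0.06 in BE(2)-C (limma adjusted p = 7.11e-04). The fall was larger in HepG2, by 0.52 ± 0.10 as BE(2)-C minus HepG2 (limma adjusted p = 0.00126).

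The mitochondrial folate enzymes MTHFD2, SHMT2 and ALDH1L2 were all lower in HepG2. MTHFD2, which oxidizes the folate-bound carbon unit, read 33.8, 35.1 and 31.8 FPKM in HepG2 siC and 14.5, 14.6 and 14.7 FPKM in siI1. The siI1 replicates were almost equal and far below siC (-1.20 ± 0.05, limma adjusted p = 1.34e-05). BE(2)-C held MTHFD2 between 30.2 and 33.9 FPKM in all 6 libraries, with overlapping groups (-0.07 ± 0.05, limma adjusted p = 0.356), and the lines differed by 1.12 ± 0.07 (limma adjusted p = 1.10e-06). SHMT2 splits serine into glycine and a carbon unit. It read 80.2, 73.3 and 72.5 FPKM in BE(2)-C siC and 52.2, 48.0 and 46.4 FPKM in siI1. In HepG2 it read 44.2, 46.2 and 47.0 FPKM and 31.5, 35.9 and 36.4 FPKM. Groups were separate in both lines, lower with siI1 (-0.62 ± 0.06 in BE(2)-C, -0.40 ± 0.07 in HepG2; limma adjusted p = 7.56e-04 and 0.00308), and the difference of -0.22 ± 0.10 missed the threshold (limma adjusted p = 0.0904), though it passed without HepG2 siI1 replicate 1 at -0.29 (limma adjusted p = 0.0150). The difference was also called after median centring (-0.27, limma adjusted p = 0.0377) and with a replicate block (limma adjusted p = 0.0215). ALDH1L2, the mitochondrial formyl-folate dehydrogenase, was scarce in HepG2, with 21 to 122 fragments per library, and lower there (-1.30 ± 0.27, limma adjusted p = 0.00717), and with a pseudocount of 1 the value was -0.48. Like MTHFD2 it was not called in BE(2)-C (-0.19 ± 0.11, limma adjusted p = 0.245).

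Serine is made from a glycolytic intermediate by PHGDH, PSAT1 and PSPH in turn, and these 3 steps did not move together. PHGDH, the entry step, read 23.2, 24.3 and 23.6 FPKM in HepG2 siC and 27.3, 33.9 and 32.3 FPKM in siI1. The siI1 libraries were higher, replicate 1 least so (0.39 ± 0.08, limma adjusted p = 0.00917), and equal FPKM sums left 0.22 (limma adjusted p = 0.0186). PHGDH went the other way in BE(2)-C, from 128, 117 and 112 FPKM to 84.1, 76.8 and 79.0 FPKM. The groups were separate (-0.57 ± 0.06, limma adjusted p = 0.00105), and the lines differed by -0.96 ± 0.11 (limma adjusted p = 5.27e-05). PSAT1 was lower in HepG2, from a mean of 172 to 139 FPKM (-0.31 ± 0.05, limma adjusted p = 0.00232), and its groups overlapped in BE(2)-C (0.06 ± 0.05, limma adjusted p = 0.446). PSPH was lower in BE(2)-C (-0.45 ± 0.06, limma adjusted p = 0.00271) and not called in HepG2 (-0.05 ± 0.04, limma adjusted p = 0.345). With equal FPKM sums PSPH was called lower in HepG2 as well, at -0.22 (limma adjusted p = 0.0132). Its near copy PSPHP1 read 17.9 to 30.2 FPKM in BE(2)-C libraries, so fragments of PSPH may be divided between both there. PSPHP1 was not called in BE(2)-C (-0.31 ± 0.14, limma adjusted p = 0.135).

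PCK2 and GPT2 link the mitochondrial carbon pools to amino acids, and the fall of PCK2 was the larger in BE(2)-C and that of GPT2 the larger in HepG2. PCK2, the mitochondrial phosphoenolpyruvate carboxykinase, read 30.8, 28.2 and 27.6 FPKM in BE(2)-C siC and 17.1, 15.7 and 16.2 FPKM in siI1. The siI1 libraries were far below siC there (-0.82 ± 0.06, limma adjusted p = 2.85e-04), while in HepG2 the groups overlapped (-0.06 ± 0.08, limma adjusted p = 0.597) and the lines differed by -0.76 ± 0.10 (limma adjusted p = 1.49e-04). With equal FPKM sums PCK2 was called lower in HepG2 too, at -0.22 (limma adjusted p = 0.0105). GPT2, the mitochondrial alanine aminotransferase, read 56.8, 55.3 and 57.8 FPKM in HepG2 siC and 28.6, 28.0 and 29.9 FPKM in siI1. Here all siI1 libraries lay far lower (-0.97 ± 0.05, limma adjusted p = 1.94e-05). The BE(2)-C value of -0.26 ± 0.07 (limma adjusted p = 0.0390) lost its call without siC replicate 1 (-0.25, limma adjusted p = 0.0894), siC replicate 2 (-0.23), siI1 replicate 1 (-0.30), siI1 replicate 2 (-0.28) or siI1 replicate 3 (-0.20). Median centring (-0.22, limma adjusted p = 0.0625), no trend (limma adjusted p = 0.0788) and no filter (limma adjusted p = 0.0551) ended the call too. The knockdown effects on GPT2 differed between the lines by 0.71 ± 0.09 (limma adjusted p = 7.39e-05).

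CBS and CTH form the transsulfuration path from homocysteine to cysteine. CTH was at 5.02, 4.83 and 4.33 FPKM in HepG2 siC and 1.53, 1.28 and 1.21 FPKM in siI1, values given because of the size of the change. All siI1 libraries were lower (-1.75 ± 0.12, limma adjusted p = 7.13e-05). BE(2)-C libraries held at most 1.39 FPKM of CTH, on 22 to 47 fragments, with siI1 below siC, and the change was not called (-0.57 ± 0.19, limma adjusted p = 0.0687). It was called lower without siC replicate 2 (-0.71, limma adjusted p = 0.0488), among protein-coding genes only (limma adjusted p = 0.0139) and in 1 fit over the 12 libraries (limma adjusted p = 0.0193). CBS read 5.25 to 6.34 FPKM in HepG2 siC and 4.25 to 5.12 FPKM in siI1 (-0.35 ± 0.11, limma adjusted p = 0.0357), and its call was lost without siC replicate 1 (-0.32, limma adjusted p = 0.108), siC replicate 2 (-0.29), siI1 replicate 1 (-0.29) or siI1 replicate 3 (-0.32). It was also lost after median centring (-0.26, limma adjusted p = 0.0998), without the trend (limma adjusted p = 0.0613) and without the filter (limma adjusted p = 0.0537). The near-identical copy CBSL was listed at like levels, 3.66 to 7.20 FPKM in HepG2 and 18.9 to 28.5 FPKM in BE(2)-C, so the level of CBS is uncertain. CBSL was called lower in HepG2 (-0.59 ± 0.17, limma adjusted p = 0.0245) and was not called in BE(2)-C (-0.15 ± 0.14, limma adjusted p = 0.487). CBS was not called in BE(2)-C (0.06 ± 0.08, limma adjusted p = 0.637).

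The amino acid transporters gave the lowest median of the larger roles in HepG2, -1.47, with 6 of 7 lower and none higher; in BE(2)-C the median was -0.52, with 4 lower and none higher. All tested genes were lower for 23.0% and 14.8%. SLC7A11 is the cystine-glutamate exchanger that supplies cysteine for glutathione, and it is shown because it had the lowest fold change of all members, a choice made after its values were seen. HepG2 libraries read 20.04, 17.5 and 19.97 FPKM with siC and 4.41, 2.74 and 2.73 FPKM with siI1. The highest siI1 value, replicate 1, was far below the lowest siC value (-2.54 ± 0.19, limma adjusted p = 7.67e-05). SLC7A11 was low in BE(2)-C, at 0.253, 0.340 and 0.512 FPKM and 0.671, 0.521 and 0.493 FPKM. Those groups overlapped and the change was not called (0.53 ± 0.27, limma adjusted p = 0.196), while on recovered fragment counts it was 0.66 (limma voom adjusted p = 0.0176). The lines differed by 3.07 ± 0.31 (limma adjusted p = 2.35e-05).

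SLC38A2, SLC1A5 and SLC1A4 carry small neutral amino acids such as glutamine, alanine and serine. SLC38A2 read 159, 149 and 160.1 FPKM in HepG2 siC and 59.8, 44.5 and 45.9 FPKM in siI1. Every siI1 library was far lower, replicate 1 the least (-1.65 ± 0.12, limma adjusted p = 6.53e-05). BE(2)-C held 15.1 to 19.8 FPKM of SLC38A2, with overlapping groups (-0.11 ± 0.09, limma adjusted p = 0.414), and the lines differed by 1.54 ± 0.16 (limma adjusted p = 2.26e-05). SLC1A5, the glutamine carrier ASCT2, went from 74.2, 76.6 and 78.5 FPKM to 25.9, 27.6 and 29.0 FPKM in HepG2. The corresponding BE(2)-C values were 153, 136 and 142 FPKM and 103, 100.3 and 96.0 FPKM. It fell in both, with no overlap between groups (-1.47 ± 0.06 in HepG2, -0.52 ± 0.06 in BE(2)-C; limma adjusted p = 8.81e-06 and 0.00102), by less in BE(2)-C (0.95 ± 0.08; limma adjusted p = 7.11e-06).

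SLC1A4 had the lowest fold change of the members in BE(2)-C with the pseudocount of 0.1, but not with a pseudocount of 1, where it was -0.50. HepG2 libraries held 16.8, 17.4 and 17.4 FPKM of it with siC and 8.65, 8.71 and 9.43 FPKM with siI1. Its BE(2)-C mean went from 1.07 to 0.461 FPKM, on 40 to 119 fragments per library. The groups were separate and lower with siI1 in both lines (-0.94 ± 0.06 in HepG2, -1.05 ± 0.18 in BE(2)-C; limma adjusted p = 3.77e-05 and 0.00571), and the difference of -0.12 ± 0.14 missed the threshold (limma adjusted p = 0.556), while a pseudocount of 1 turned it to 0.38 with a call (limma adjusted p = 0.00580). SLC7A1 imports arginine and lysine. It fell in HepG2 from a mean of 16.2 to 5.16 FPKM (-1.64 ± 0.13, limma adjusted p = 1.21e-04) and was not called in BE(2)-C (-0.12 ± 0.05, limma adjusted p = 0.106), with a difference between lines of 1.52 ± 0.15 (limma adjusted p = 1.80e-05).

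SLC7A5 and SLC3A2 together form the LAT1 exchanger for leucine and other large neutral amino acids, and both fell in BE(2)-C. SLC7A5 read 173, 148 and 159 FPKM in BE(2)-C siC and 88.8, 89.2 and 82.4 FPKM in siI1. Its groups were far apart (-0.88 ± 0.07, limma adjusted p = 3.14e-04). HepG2 gave 116, 118 and 119.9 FPKM and 117, 119 and 126 FPKM. There the groups overlapped (0.03 ± 0.05, limma adjusted p = 0.624), although equal FPKM sums turned the value to -0.13 (limma adjusted p = 0.0427), and the lines differed by -0.92 ± 0.09 (limma adjusted p = 1.21e-05). SLC3A2, the heavy chain shared with SLC7A11, read 67.0, 61.6 and 60.6 FPKM in BE(2)-C siC and 39.0, 37.1 and 36.2 FPKM in siI1. The siI1 libraries were all lower (-0.75 ± 0.05, limma adjusted p = 2.76e-04). Its HepG2 change of -0.32 ± 0.08 was called (limma adjusted p = 0.0151) but not without siC replicate 2 (-0.28; limma adjusted p = 0.0534).

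Aminoacyl-tRNA synthetases attach amino acids to their tRNAs; the 10 members are cytosolic enzymes or enzymes used in both compartments. In HepG2 8 were lower and none higher (median -0.56), in BE(2)-C 5 were lower and none higher (median -0.24), beside 23.0% and 14.8% lower among all tested genes. YARS, for tyrosine, read 19.2, 19.9 and 19.0 FPKM in HepG2 siC and 9.34, 9.41 and 9.53 FPKM in siI1. YARS in BE(2)-C read 33.3, 32.7 and 30.2 FPKM and 21.8, 20.1 and 20.2 FPKM. The siI1 groups were tight and well below siC in both lines (-1.03 ± 0.05 in HepG2, -0.63 ± 0.06 in BE(2)-C; limma adjusted p = 1.62e-05 and 5.23e-04). AARS, for alanine, whose promoter core is printed above, read 118, 106 and 110.3 FPKM in BE(2)-C siC and 75.6, 71.6 and 67.8 FPKM in siI1. In HepG2 it read 69.1, 67.4 and 68.0 FPKM and 55.3, 58.4 and 58.8 FPKM. It fell in both without overlap (-0.64 ± 0.06 in BE(2)-C, -0.25 ± 0.05 in HepG2; limma adjusted p = 6.06e-04 and 0.00580), by more in BE(2)-C (-0.39 ± 0.08; limma adjusted p = 0.00188). SARS, for serine, was measured at 131, 131 and 122 FPKM in BE(2)-C siC and 93.5, 91.1 and 88.2 FPKM in siI1. It was lower in every siI1 library there (-0.50 ± 0.05, limma adjusted p = 6.43e-04) and overlapped between groups in HepG2 (-0.12 ± 0.07, limma adjusted p = 0.238), where equal FPKM sums gave -0.28 and a call (limma adjusted p = 0.00434).

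GARS, for glycine, read 48.4, 50.9 and 49.4 FPKM in HepG2 siC and 26.1, 29.4 and 28.5 FPKM in siI1. MARS, for methionine, read 22.4, 22.1 and 21.8 FPKM and 14.8, 14.6 and 13.8 FPKM in the same libraries. In both cases the siI1 libraries were all lower (-0.82 ± 0.06 for GARS, -0.62 ± 0.05 for MARS; limma adjusted p = 7.23e-05 and 1.21e-04). MARS was lower in BE(2)-C as well (-0.37 ± 0.05, limma adjusted p = 0.00311), as was CARS, for cysteine, in both lines (-0.66 ± 0.11 in HepG2, -0.44 ± 0.10 in BE(2)-C; limma adjusted p = 0.00274 and 0.0142), a BE(2)-C call that was lost without siI1 replicate 3 (-0.43; limma adjusted p = 0.0515). GARS itself was not called in BE(2)-C (-0.12 ± 0.04, limma adjusted p = 0.0704), except without siC replicate 1 (-0.14, limma adjusted p = 0.0401).

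NARS, WARS and EPRS, for asparagine, tryptophan and for glutamate with proline, had lower siI1 values in HepG2 alone. Their log2 fold changes there were -0.61 ± 0.06, -0.50 ± 0.05 and -0.46 ± 0.06 (limma adjusted p = 2.02e-04, 3.25e-04 and 9.74e-04). The BE(2)-C values were 0.09, 0.09 and 0.18 and none was called (limma adjusted p = 0.279, 0.284 and 0.0696). EPRS was called higher in BE(2)-C with limma voom on fragment counts (0.18, limma voom adjusted p = 0.0170), median centring, a replicate block or protein-coding genes only. The differences between lines passed the threshold for all 3, at 0.70, 0.59 and 0.64 (limma adjusted p = 4.20e-05, 9.56e-05 and 1.77e-04). IARS, for isoleucine, was called in neither line (-0.15 ± 0.06 in HepG2, -0.08 ± 0.04 in BE(2)-C; limma adjusted p = 0.0635 and 0.155). In HepG2 it was called lower with equal FPKM sums (-0.32, limma adjusted p = 0.0178), in 1 fit over the 12 libraries (limma adjusted p = 0.0149) and, as given above, without siI1 replicate 1.

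XPOT carries finished tRNAs out of the nucleus. HepG2 libraries held 20.2, 18.3 and 19.9 FPKM with siC and 6.04, 5.03 and 5.43 FPKM with siI1. No siI1 library came close to siC (-1.81 ± 0.08, limma adjusted p = 1.52e-05). The values in BE(2)-C were 26.5, 30.6 and 33.5 FPKM and 22.1, 24.8 and 23.9 FPKM. The siI1 libraries were lower there by a smaller margin (-0.35 ± 0.09, limma adjusted p = 0.0290), and the call was lost without siC replicate 2 (-0.33, limma adjusted p = 0.0772), siC replicate 3 (-0.27), siI1 replicate 1 (-0.30), siI1 replicate 2 (-0.38) or siI1 replicate 3 (-0.36). Equal FPKM sums (-0.33, limma adjusted p = 0.0567), no trend (limma adjusted p = 0.0770) and no filter (limma adjusted p = 0.0506) ended it as well. The lines differed by 1.46 ± 0.13 (limma adjusted p = 8.46e-06).

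STC2, a secreted glycoprotein induced by stress, was the only member lower in HepG2 and higher in BE(2)-C. It read 20.4, 20.1 and 20.2 FPKM in HepG2 siC and 11.3, 11.2 and 11.4 FPKM in siI1. Its BE(2)-C values were 11.3, 11.2 and 11.4 FPKM and 15.8, 15.2 and 14.7 FPKM. Replicates agreed closely and no groups overlapped (-0.84 ± 0.05 in HepG2, 0.43 ± 0.05 in BE(2)-C; limma adjusted p = 2.60e-05 and 0.00127), so that the lines differed by 1.26 ± 0.06 (limma adjusted p = 1.43e-07). VLDLR, a lipoprotein receptor, read 2.06, 2.07 and 2.00 FPKM in HepG2 siC and 2.99, 2.61 and 2.68 FPKM in siI1, and 0.955, 0.952 and 0.735 FPKM and 1.36, 1.48 and 1.29 FPKM in BE(2)-C. It was higher with siI1 in both without overlap (0.42 ± 0.10 in HepG2, 0.59 ± 0.16 in BE(2)-C; limma adjusted p = 0.0149 and 0.0289). These calls were lost in HepG2 without siC replicate 3 (0.40; limma adjusted p = 0.0519) or with equal FPKM sums (0.26; limma adjusted p = 0.138), and in BE(2)-C without siC replicate 3 (0.48; limma adjusted p = 0.0671), siI1 replicate 1 (0.60), siI1 replicate 2 (0.54) or siI1 replicate 3 (0.64), and without the filter (limma adjusted p = 0.0572).

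Summed over roles, the level of RNA gave the following. The 7 transporters together went from 464 ± 8.49 FPKM (SD, 3 libraries) to 264 ± 5.70 FPKM in HepG2 and from 422 ± 24.2 to 275 ± 8.80 FPKM in BE(2)-C. The synthetases went from 346 ± 1.139 to 252 ± 2.28 FPKM in HepG2 and from 538 ± 7.34 to 437 ± 8.81 FPKM in BE(2)-C. For the enzymes the sums were 448 ± 3.19 and 346 ± 10.4 FPKM in HepG2 and 433 ± 10.2 and 344 ± 8.63 FPKM in BE(2)-C. Among regulators 3, CHAC1 included, were lower and 5 higher in HepG2, and 5 lower and 1 higher in BE(2)-C. All tested genes were lower for 23.0% and higher for 21.9% in HepG2, and for 14.8% and 13.3% in BE(2)-C. The sums of the regulators were 305 ± 11.3 FPKM in HepG2 siC and 407 ± 30.0 FPKM in siI1, and 339 ± 9.27 and 315 ± 14.3 FPKM in BE(2)-C. Most of the HepG2 rise lies in DDIT4, whose mean went from 48.2 to 131 FPKM, and NUPR1, from 5.03 to 26.7 FPKM. In each of these sums the 3 siI1 libraries lay wholly on 1 side of the siC libraries, except for the regulators of BE(2)-C, where the groups overlapped.

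**Figure D3:**
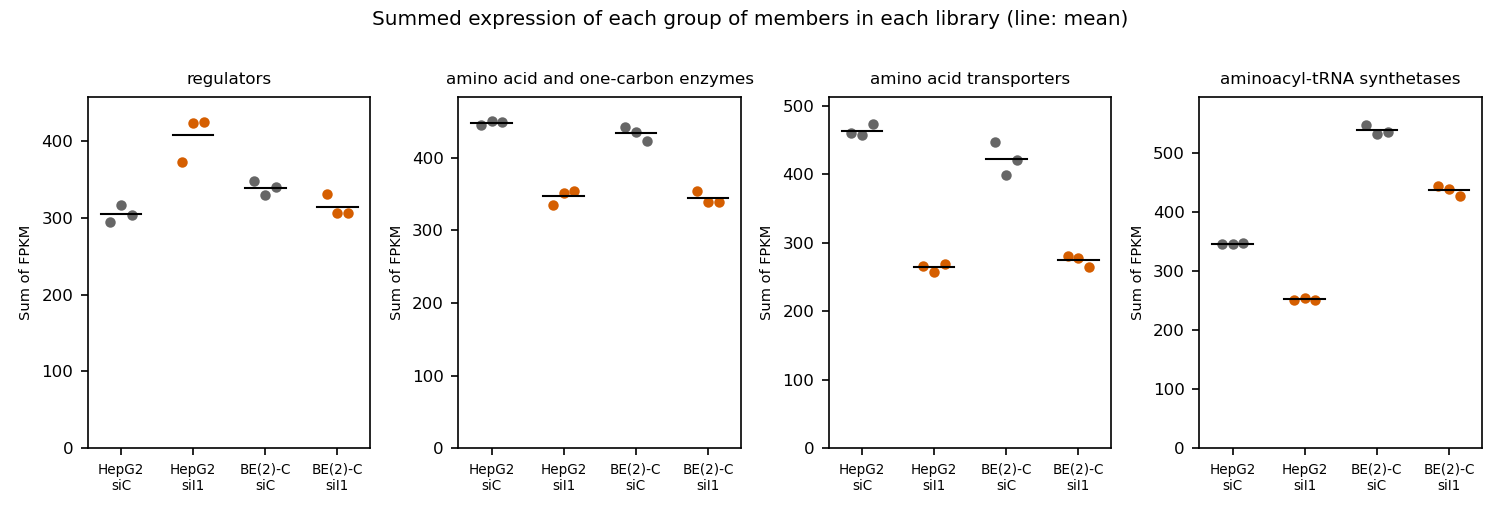
The summed FPKM of the members of each role is plotted for every library (grey siC, orange siI1; line, group mean; linear axis from 0). The sums of enzymes, transporters and synthetases are lower with siI1 in both lines, and the sum of regulators is higher with siI1 in HepG2, while its groups overlap in BE(2)-C.

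Of the 40 members tested in both, 11 were lower in both and 2, DDIT4 and VLDLR, were higher in both, beside 6.60% lower in both and 4.34% higher in both among the 15362 genes tested in both lines. A further 15 were lower in HepG2 and not called in BE(2)-C (15.7% of all genes). They include CHAC1, whose direction in HepG2 was set by the filter. Another 6 were lower in BE(2)-C and not called in HepG2 (6.37% of all genes), namely ATF4, CEBPG, PSPH, PCK2, SLC7A5 and SARS. The last group depends on the scaling, since with equal FPKM sums all of them but CEBPG were called lower in HepG2 as well. ATF3, DDIT3, TRIB3 and PHGDH were higher in HepG2 and lower in BE(2)-C (3.31% of all genes), and STC2 was the reverse (2.51%). With equal FPKM sums the HepG2 calls of DDIT3 and TRIB3 were lost, as was that of VLDLR, counted above as higher in both. The test of the difference itself, BE(2)-C effect minus HepG2 effect, called 34 members, against 40.2% of the 15362 genes tested in both lines. The effect was higher in BE(2)-C for 22 of them, 21 without CHAC1, and lower for 12. It was higher for 7 of 11 enzymes, 4 of 7 transporters and 6 of 10 synthetases, and lower for 5 of 9 regulators. The share over all genes was not split by direction, so whether these directions are particular to the members was not tested. ATF4, SHMT2, SLC1A4, CARS, IARS and VLDLR were the members for which no difference was called. Under other settings a difference was called for ATF4, SHMT2 and SLC1A4, as given above, and for CARS with equal FPKM sums, at 0.40 (limma adjusted p = 0.0412).

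**Figure D4:**
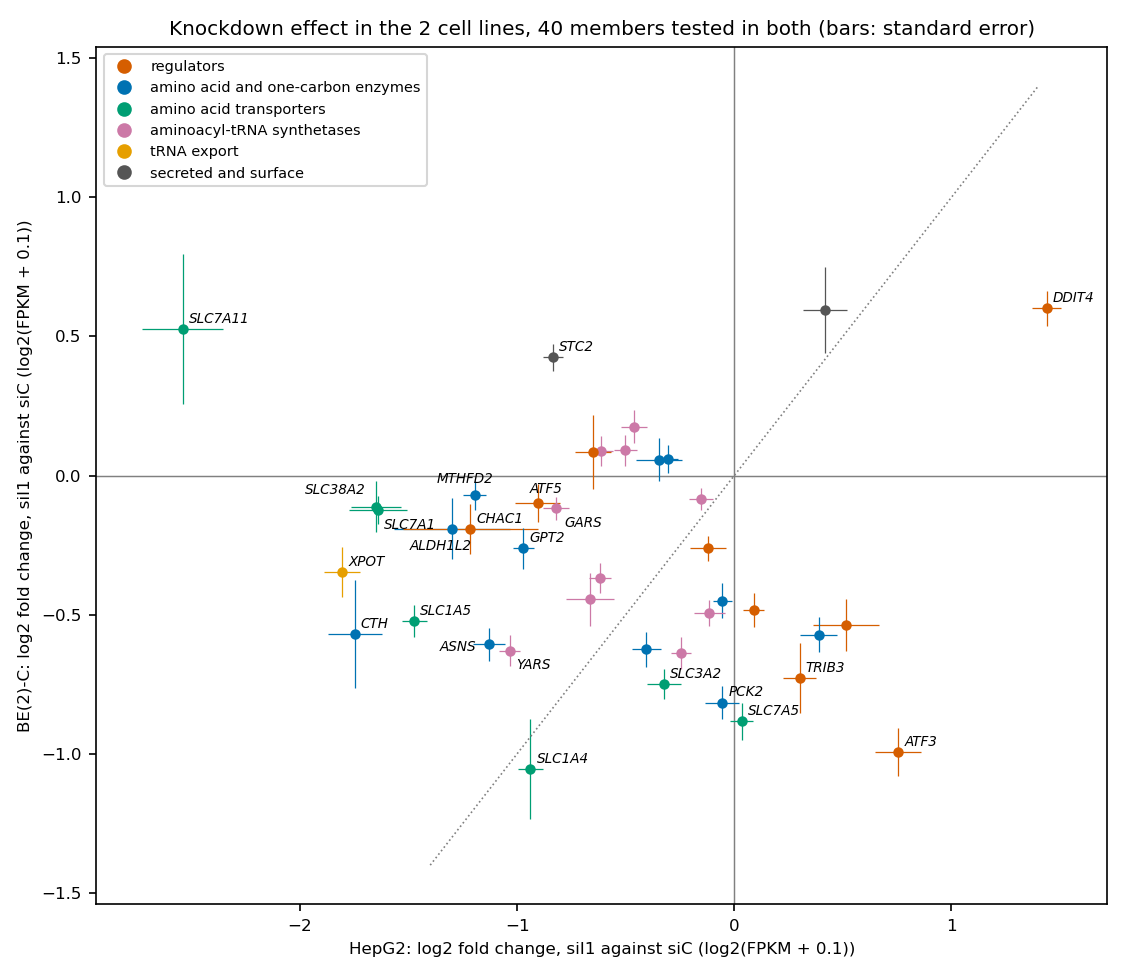
Each point is 1 of the 40 members tested in both lines, with its log2 fold change in HepG2 on the horizontal axis and in BE(2)-C on the vertical axis (log2(FPKM + 0.1) scale; bars, standard errors; dotted line, equal effects; colours, roles). Most points lie left of 0, SLC7A11, XPOT and CTH reach -2.54, -1.81 and -1.75 in HepG2, and ATF3, TRIB3 and PHGDH lie in the lower right.

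Genes around the set were read in the same way, with 23.0% lower and 21.9% higher among all tested genes in HepG2 and 14.8% and 13.3% in BE(2)-C. Over the other settings 492 counts of these lists stayed equal or close to the main count and 116 moved further. Of the calls of their genes 1461 held and 118 were lost. Of the eIF2 kinases, the phosphatase subunit PPP1R15B and regulators of the kinases such as GCN1, 5 of 8 were lower and none higher in HepG2, led by EIF2AK1, the heme-regulated eIF2 kinase (mean 43.1 ± 0.418 to 21.8 ± 0.238 FPKM, SD; -0.98 ± 0.04, limma adjusted p = 1.22e-05). Of the same 8 in BE(2)-C, 1 was lower, again EIF2AK1 (-0.32 ± 0.04, limma adjusted p = 0.00138), and 2 were higher, among them EIF2AK2 (0.43 ± 0.08, limma adjusted p = 0.00709). Subunits of eIF2 and of its exchange factor eIF2B were lower for 5 of 8 in HepG2 and 4 of 8 in BE(2)-C, with none higher. EIF2S1, the subunit that is phosphorylated, gave -1.12 ± 0.06 in HepG2 (mean 20.8 ± 0.439 to 9.52 ± 0.489 FPKM, SD; limma adjusted p = 2.12e-05), and EIF2B2 led in BE(2)-C with -0.69 ± 0.06 (limma adjusted p = 4.21e-04).

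Further ATF4 target genes outside the 41 were split in HepG2, with 6 of 11 lower and 4 higher, while in BE(2)-C 2 of 11 were lower and 1 higher, beside 28.2% called among all tested genes there. INHBE, an inhibin chain of liver cells, rose in HepG2 (mean 10.8 ± 0.782 to 55.2 ± 1.62 FPKM, SD; 2.34 ± 0.06, limma adjusted p = 2.90e-06), while SESN2, a leucine sensor, fell (-0.68 ± 0.08, limma adjusted p = 4.50e-04). CEBPB, a C/EBP partner of ATF4, fell in BE(2)-C (mean 32.3 ± 1.25 to 19.1 ± 0.275 FPKM, SD; -0.76 ± 0.04, limma adjusted p = 1.65e-04). The ER chaperone branch, which answers to unfolded protein rather than to amino acids, had 8 of 10 genes lower and none higher in HepG2, with DNAJB9 at -1.23 ± 0.11 (limma adjusted p = 1.63e-04). For BE(2)-C 4 of its 10 genes were lower and 1 higher, with SDF2L1 at -0.87 ± 0.05 (limma adjusted p = 1.47e-04).

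Synthetases not in the set showed how far the pattern of the set's own synthetases reached. The other cytosolic synthetases were lower for 7 of 10 and higher for 1 in HepG2 (median -0.42), led by HARS at -0.75 ± 0.06 (limma adjusted p = 8.13e-05). For BE(2)-C 1 was lower and 4 were higher (median 0.09), among them RARS at 0.34 ± 0.05 (limma adjusted p = 0.00478), which was lower in HepG2 (-0.56 ± 0.05, limma adjusted p = 1.37e-04). Mitochondrial synthetases were lower for 7 of 17 and higher for 4 in HepG2, and lower for 4 of 17 and higher for 1 in BE(2)-C, a share near the 28.2% called among all tested genes there. AARS2 in BE(2)-C gave -0.78 ± 0.06 (limma adjusted p = 2.63e-04).

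Among the other amino acid transporters 6 of 11 were lower and 2 higher in HepG2, and 2 of 10 were lower and 1 higher in BE(2)-C, near the share of 28.2% over all tested genes. SLC38A1, a glutamine carrier, was lower in HepG2 (mean 25.0 ± 1.21 to 7.76 ± 0.943 FPKM, SD; -1.68 ± 0.09, limma adjusted p = 2.63e-05). SLC38A3, a glutamine carrier of mature hepatocytes, was higher in HepG2 (0.86 ± 0.07, limma adjusted p = 1.20e-04). Its lower call in BE(2)-C carries no weight, because it had 1 to 13 fragments per library and reached 0.1 FPKM in siC libraries only. The other one-carbon and glycine enzymes were lower for 3 of 10 and higher for 4 in HepG2, and lower for 3 of 7 and higher for none in BE(2)-C. SLC25A32, the mitochondrial folate carrier, was lower in HepG2 (-1.49 ± 0.10, limma adjusted p = 4.92e-05). ALDH1L1, the cytosolic counterpart of ALDH1L2, rose in HepG2 (mean 2.60 ± 0.0856 to 7.38 ± 0.574 FPKM, SD; 1.47 ± 0.09, limma adjusted p = 3.25e-05).

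**Figure D5:**
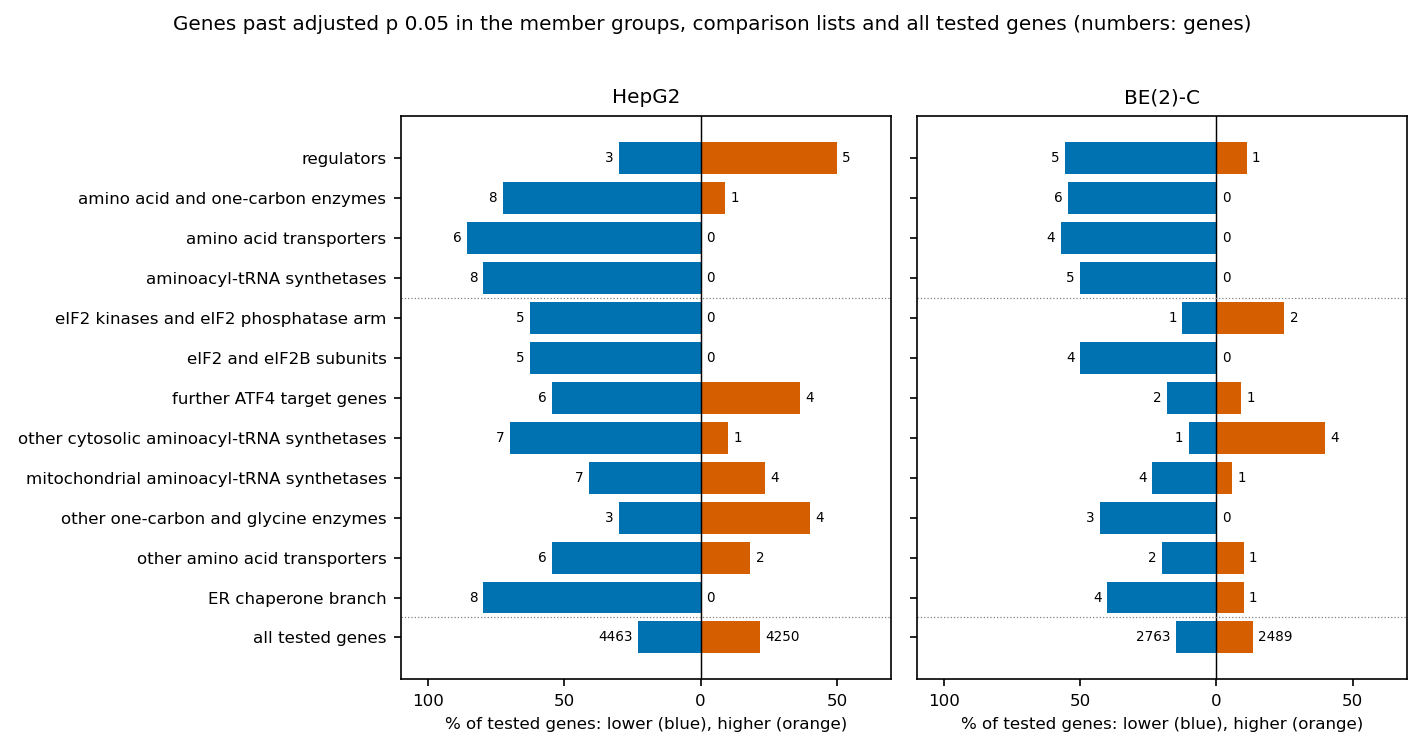
Bars give the percentage of tested genes that were lower (blue, to the left) or higher (orange, to the right) with siI1 at an adjusted p below 0.05, for 4 roles of the members, 8 comparison lists and all tested genes; the numbers beside the bars are genes. In HepG2 the transporters, synthetases and enzymes of the set show 6, 8 and 8 genes lower and 0, 0 and 1 higher, and the other cytosolic synthetases show 7 lower in HepG2 but 1 lower and 4 higher in BE(2)-C.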

How the data were processed

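Per the submitters' processing notes the authors used cutadapt 1.14, HISAT2 2.1.0, SAMtools 1.5, featureCounts 1.5.3 and edgeR 3.30.3 with build hg38. The deposited tables, 1 per line, hold the authors' FPKM for 58174 genes, a gene length, and their own fold changes, p-values and FDR, which were not used. FPKM multiplied by length and by 1 factor per library gave whole fragments for 100% of values above 0, within 0.01, in every library. The libraries are strand-specific, but whether counting used the strand is not given in the sources used here, so genes that overlap on opposite strands, such as DDIT3 and MARS, may share fragments; exons of 10 members overlap another protein-coding gene.

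Tested genes reached 0.1 FPKM in 3 or more of the 6 libraries of a line. limma 3.58.1 in R 4.3.3 was run per line on log2(FPKM + 0.1), letting the prior variance follow the mean level, and every p was adjusted by the Benjamini-Hochberg method across the tested genes, with 0.05 as threshold. The difference between lines was a contrast over the 12 libraries. The files were read with data.table (version 1.17.8); Python 3.11.15 and matplotlib 3.10.9 drew the figures. The scripts were tested on simulated data. Members and lists were chosen with earlier results of these data known. Values in every library are given for ATF4, IGF2BP1, up to 3 called members of each role and line with the smallest p, and members called in opposite directions, with the other line added where lines are compared; CTH, SLC7A11 and CHAC1 were added after their values were seen. From the comparison lists only genes among the 3 smallest p of a line are named, and 1 result for such a gene is not reported here. Alternatives changed the pseudocount, filter, trend, scaling, threshold, gene types, replicate block, fragment counts in place of FPKM, a single fit, and each library in turn.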

Additional observations from a re-analysis of the deposited data

Results flagged for a closer look

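The knockdown effect on 34 members differed between the lines in the limma test, and these differences, BE(2)-C minus HepG2 on the log2 scale, deserve a closer look. No outlier test was run on groups of 3 libraries, beyond the replicate comparison that set HepG2 siI1 replicate 1 apart. Among regulators they were -1.75 for ATF3, -1.05 for DDIT3, -1.03 for TRIB3, -0.84 for DDIT4, -0.57 for CEBPG, 0.81 for ATF5, 0.73 for PPP1R15A and 1.02 for CHAC1. The CHAC1 value is no support for a difference, because in HepG2 the gene had 1 to 9 fragments per library and reached 0.1 FPKM in siC libraries only, and it was 0.09 with a pseudocount of 1.

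Enzymes gave 0.52 for ASNS, -0.96 for PHGDH, 0.37 for PSAT1, -0.40 for PSPH, 1.12 for MTHFD2, 1.11 for ALDH1L2, -0.76 for PCK2, 0.71 for GPT2, 1.18 for CTH and 0.40 for CBS. ALDH1L2 was 0.32 and not called with a pseudocount of 1. The CBS difference was not called without HepG2 siC replicate 1 (0.38), siC replicate 2 (0.35), siI1 replicate 1 (0.35) or siI1 replicate 3 (0.38), nor without BE(2)-C siC replicate 2 (0.35), siI1 replicate 2 (0.39) or siI1 replicate 3 (0.35). Median centring (0.35, limma adjusted p = 0.0649) and no trend (limma adjusted p = 0.0539) ended that call too.

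Transporters gave 1.52 for SLC7A1, -0.92 for SLC7A5, 3.07 for SLC7A11, -0.43 for SLC3A2, 1.54 for SLC38A2 and 0.95 for SLC1A5. Synthetases gave -0.39 for AARS, 0.70 for GARS, 0.59 for WARS, -0.38 for SARS, 0.25 for MARS, 0.64 for EPRS, 0.70 for NARS and 0.40 for YARS. The MARS difference was 0.20 and not called after median centring (limma adjusted p = 0.0527). XPOT differed by 1.46 and STC2 by 1.26. The lines also differ in siRNA concentration, and its part in these values was not tested.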

How the results depend on the processing

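The HepG2 member median, -0.50, was -0.45 with a pseudocount of 1, -0.46 among genes of at least 1 FPKM, -0.41 after median centring and -0.67 with equal FPKM sums; the cause was not tested. Members higher in HepG2 went from 7 to 4 with equal sums, to 4 at an adjusted p below 0.01 and to 4 at an absolute log2 fold change of at least 0.5. For BE(2)-C the median, -0.30, was -0.26 among genes of at least 1 FPKM, -0.26 without the filter and -0.26 after median centring; 5 members were higher with limma voom on fragment counts, and 13 were lower at an absolute log2 fold change of at least 0.5. SLC7A5 in HepG2 became lower with equal sums (-0.13), and with a pseudocount of 1 the SLC1A4 difference between lines became higher in BE(2)-C (0.38). Leaving out 1 library at a time gave 25 to 27 members lower and 5 to 7 higher in HepG2 (median -0.53, without siI1 replicate 2, to -0.48, without siI1 replicate 3), 18 to 21 lower and 2 to 3 higher in BE(2)-C, and 33 to 35 differences between lines. With a replicate block, 26 members were lower and 7 higher in HepG2, 21 and 4 in BE(2)-C. Deviations from the group means correlated at most at 0.0625 between siC and siI1 replicates of the same number. In both lines only siC replicate 1 correlated best with the siI1 library of its own number. These correlations cannot tell whether libraries of the same number were handled together.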
